A study of Piaractus mesopotamicus with 9 samples.

Results

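Amino acids and insulin-like growth factor 1 (IGF1) were each given to starved pacu myotubes, and the microRNA profiles of the cells were compared directly. The study treats both as pro-growth signals, and growth is not measured by these libraries. Pacu (Piaractus mesopotamicus) is a freshwater fish of South America. Its myotubes are multinucleate muscle cells made by the fusion of myoblasts in culture. The comparison used the 3 AA and 3 IGF1 libraries, which are 6 of the 9 small RNA libraries of the series, and the 3 starved control (CTR) libraries entered the same statistical model. Cells isolated from the fast-twitch muscle of pooled juvenile fish were grown to day 8. According to the treatment protocol, AA and IGF1 cells were then deprived for 12 h and supplemented for 24 h, while CTR cells stayed in deprivation medium for 36 h. The sample characteristics give 12 h for both supplements, so the length of treatment is not settled. AA cells received amino acids as DMEM, a culture medium for which the methods list no serum at this step. IGF1 cells received recombinant sea bream IGF1 in the amino acid-free medium, so amino acids and the medium base cannot be told apart in any difference between them. No genetic change was made in any group. The study describes 3 independent cultures, without naming the culture behind each library.

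MicroRNAs (miRNAs) are short RNAs that pair with messenger RNAs through a short seed near their start and lower the protein output of their targets. A hairpin precursor is cut into a 5p and a 3p arm, of which 1 usually accumulates while the other, the passenger arm, is mostly degraded. In vertebrate skeletal muscle a small set of muscle-specific miRNAs (miR-1 and miR-206, miR-133, and miR-499) is switched on with differentiation, whereas most other miRNAs of these cells are shared with many tissues.

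Reads had been assigned to mature miRNAs of 13 teleost species, named by a species prefix such as dre- for zebrafish, ssa- for Atlantic salmon and ola- for medaka. The mean reached 10 counts or more in 1769 entries. Where entries had the same counts in all 9 libraries they were treated as 1, which left 953 distinct profiles of 118 miRNA numbers (all letters and arms of miR-133, for example, form 1 number). Each profile carries the name of its zebrafish entry if it has one and otherwise that of the entry first in the alphabet. The counts do not show which of several similar entries pacu expresses. Counts over the zebrafish entries, in units of 1e6, were 10.2 ± 0.872 in AA, 11.6 ± 1.16 in IGF1 and 10.3 ± 2.36 in CTR (SD, n = 3). The most abundant entry, dre-miR-21, took 48.5 to 55.3% of them in AA and 51.0 to 57.1% in IGF1. Levels of single profiles are given below as the authors' normalised counts, and log2 fold changes are those of AA over IGF1 from edgeR's quasi-likelihood test with the replicate number as a block.

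The largest differences between the nutrient and the hormone lay in the muscle-specific miRNAs, all higher in AA, although 22 of the 37 called profiles lay outside them. Calls required a p of 0.05 or lower after Benjamini-Hochberg adjustment over the 953 profiles, together with a log2 fold change of 0.55 or more in either direction (1.46-fold). Under this rule 37 profiles of 16 miRNA numbers were called (3.88%). Of these, 28 were higher in AA (2.94% of all profiles) and 9 were lower (0.944%). The 28 higher profiles comprised all 15 of miR-1, miR-206, miR-133 and miR-499, 3 of miR-92b, 3 of miR-125, 2 of miR-101 and 1 each of miR-15, miR-26, miR-106, miR-301 and miR-551. The 9 lower profiles comprised 4 of miR-10 and 1 each of miR-22, miR-26, miR-30, miR-92 and miR-204. The numbers miR-26 and miR-92 therefore had calls in both directions, from different entries.

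All 37 called profiles moved the same way in each of the 3 same-numbered pairs of libraries. The calls came from these libraries with the pairs as a block, so this agreement and the overlaps below are no separate test. Uncalled profiles such as dre-miR-21 and dre-miR-146a also moved the same way in all 3 pairs. Among the 28 profiles called higher, AA and IGF1 libraries did not overlap in 24, and among the 9 called lower in 8. Over all 953 profiles, 54 had AA libraries all above the IGF1 libraries (5.67%) and 62 had them all below (6.51%). The median log2 fold change of all profiles was -0.02, and 422 of them (44.3%) lay above 0. The number of calls rested on the model and on single libraries: 20 profiles of 6 numbers (18 higher, 2 lower) were called without the block, and all 20 were among the 37. There were 19 calls without AA replicate 3, 18 without IGF1 replicate 3 and 24 without CTR replicate 2, but 71 without AA replicate 2 and 65 without IGF1 replicate 2. The excess of higher over lower calls depended on the scaling: composition factors by relative log expression gave 28 higher and 19 lower profiles, upper-quartile factors 26 and 26, and no factors 72 and 4. The last of these moved the median of all profiles by 0.15 (log2). It also depended on single libraries, with 19 higher and 21 lower profiles without AA replicate 1, and 26 higher and 21 lower without IGF1 replicate 1.

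**Figure D1:**
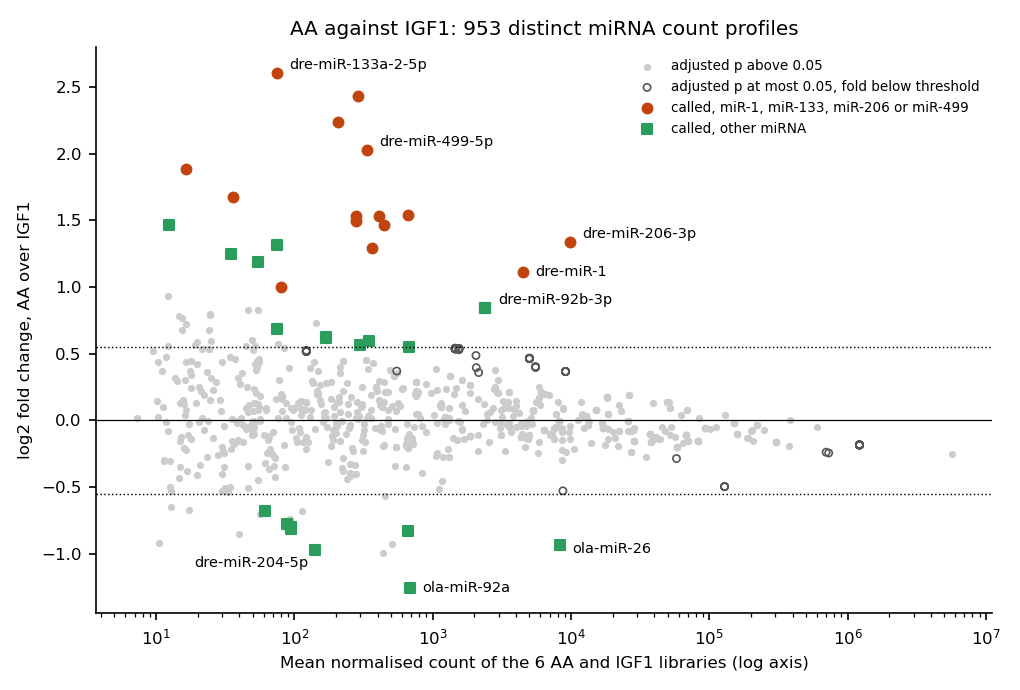
Each point is 1 of the 953 distinct profiles, with the mean normalised count of the 6 AA and IGF1 libraries on a log axis and the log2 fold change of AA over IGF1 (dotted lines at -0.55 and 0.55). The 15 profiles of the muscle-specific miRNAs (circles) lie between 1.00 and 2.61, the other called profiles (squares) between -1.25 and 1.46, and the abundant profiles at the right lie near 0.

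The most abundant muscle-specific profile was dre-miR-206-3p, from a miRNA that is expressed in skeletal muscle and promotes myoblast differentiation in mouse. It had 10111, 14963 and 16911 normalised counts in AA, 4795, 5859 and 6126 in IGF1, and 2028, 2673 and 3544 in CTR. The 3 groups did not overlap, with IGF1 between AA and CTR. Its log2 fold change of AA over IGF1 was 1.33 (SE 0.09, edgeR adjusted p = 6.1e-06). The medaka entry ola-miR-206 had 512, 659 and 771 normalised counts in AA, against 212.5, 264.6 and 234.5 in IGF1, again without overlap. Its log2 fold change was 1.46 (SE 0.16, edgeR adjusted p = 7.45e-05). The passenger arm ssa-miR-206-5p was rare, with 17.6, 28.9 and 32.5 normalised counts in AA and 10.2, 5.03 and 4.71 in IGF1. All AA libraries lay above all IGF1 libraries, and the log2 fold change was 1.89 (SE 0.42, edgeR adjusted p = 0.0191). That call was lost without AA replicate 3 (adjusted p = 0.174) or IGF1 replicate 3 (adjusted p = 0.121). The 5p counts were 0.174, 0.193 and 0.192% of those of dre-miR-206-3p in AA libraries, and 0.212, 0.0859 and 0.077% in IGF1 libraries. These ranges overlapped, with IGF1 replicate 1 above every AA library (exact permutation test without the pairing, two-sided p = 0.4).

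miR-1 is expressed in heart and skeletal muscle of vertebrates and, in mouse myoblasts, promotes differentiation. dre-miR-1 had 3869, 6395 and 8148 normalised counts in AA, against 2152, 2791 and 3611 in IGF1. The lowest AA library lay just above the highest IGF1 library, but in each same-numbered pair AA exceeded IGF1 by a similar amount (0.95, 1.19 and 1.20 on the log2 scale). The log2 fold change was 1.11 (SE 0.09, edgeR adjusted p = 1.69e-05). The CTR libraries, at 2075, 2716 and 3211, overlapped those of IGF1. The rarer ola-miR-1-3p had 267, 417 and 563 normalised counts in AA, against 103, 169 and 160.3 in IGF1, with no overlap and a log2 fold change of 1.53 (SE 0.14). Within a library, the counts of dre-miR-206-3p were 207.6 to 261.4% of those of dre-miR-1 in AA, 169.7 to 222.8% in IGF1 and 97.8 to 110.3% in CTR. The AA and IGF1 ranges of this ratio overlapped (exact permutation test, two-sided p = 0.3), although AA was above IGF1 in each of the 3 same-numbered pairs. The permutation test does not use the pairing.

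miR-133 is processed from the same primary transcripts as miR-1 or miR-206 and, in mouse myoblasts, promotes proliferation. All 8 of its profiles were called higher in AA. The most abundant was dre-miR-133b-3p, with 819.6, 734 and 1397 normalised counts in AA and 350.0, 282 and 383 in IGF1. The groups did not overlap, and AA replicate 3 stood highest. Its log2 fold change was 1.54 (SE 0.14, edgeR adjusted p = 4.03e-05). dre-miR-133a-3p had 518, 449 and 864 normalised counts in AA, against 180.5, 193 and 262 in IGF1. This 3p arm also had a log2 fold change of 1.54 (SE 0.16). The cichlid entries abu-miR-133a (AA 441, 462 and 639, IGF1 174, 234 and 237) and abu-miR-133b (AA 374, 272 and 581, IGF1 137.5, 119.7 and 180.3) had log2 fold changes of 1.29 and 1.49, without overlap.

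The 3 largest differences of the whole comparison were those of 5p arms of miR-133. dre-miR-133a-2-5p had 70.6, 137.1 and 179.9 normalised counts in AA, against 21.9, 21.1 and 16.5 in IGF1. Its lowest AA library was more than 3 times its highest IGF1 library, and the log2 fold change was 2.61 (SE 0.27, edgeR adjusted p = 6.08e-05). ola-miR-133-5p had 277, 538 and 658 normalised counts in AA and 73.4, 94.6 and 100.2 in IGF1 (log2 fold change 2.43, SE 0.18). dre-miR-133a-5p had 199.2, 361.9 and 459.4 in AA and 57.8, 75.5 and 80.1 in IGF1 (log2 fold change 2.24, SE 0.17). In these 3 profiles AA replicate 1 was the lowest AA library and still stood clear of IGF1. dre-miR-133c-5p, with 50.7, 41.8 and 71.5 normalised counts in AA and 19.5, 15.1 and 16.5 in IGF1, had a log2 fold change of 1.67 (SE 0.30). Its call was lost without AA replicate 3 (edgeR adjusted p = 0.0536) or IGF1 replicate 3 (edgeR adjusted p = 0.065). The 4 labelled 5p profiles thus lay between 1.67 and 2.61, and the 2 labelled 3p profiles at 1.54. Within a library, the counts of dre-miR-133a-5p were 38.4, 80.7 and 53.2% of those of dre-miR-133a-3p in AA, against 32.0, 39.1 and 30.6% in IGF1. These ranges overlapped, since AA replicate 1 lay below IGF1 replicate 2 (exact permutation test without the pairing, two-sided p = 0.2), but in each same-numbered pair the AA ratio was the higher.

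miR-499 lies in an intron of a slow-type myosin heavy chain gene in mammals and belongs there to the slow fibre programme, while the cells here came from fast-twitch muscle. dre-miR-499-5p had 289, 596 and 706 normalised counts in AA, 53.1, 209 and 160.3 in IGF1, and 78.8, 166 and 139.6 in CTR. The lowest AA library exceeded the highest IGF1 library, and replicate 1 was the lowest of both groups. Its log2 fold change was 2.02 (SE 0.19, edgeR adjusted p = 4.03e-05). The catfish entry ipu-miR-499 had 58.8, 109 and 148 normalised counts in AA and 24.2, 80.5 and 61.3 in IGF1. Its groups overlapped, because AA replicate 1 lay below IGF1 replicates 2 and 3. It had the smallest log2 fold change of the set, 1.00 (SE 0.21, edgeR adjusted p = 0.0162). The call was lost without the block (adjusted p = 0.484), without AA replicate 3 (0.172) or without IGF1 replicate 3 (0.0974).

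**Figure D2:**
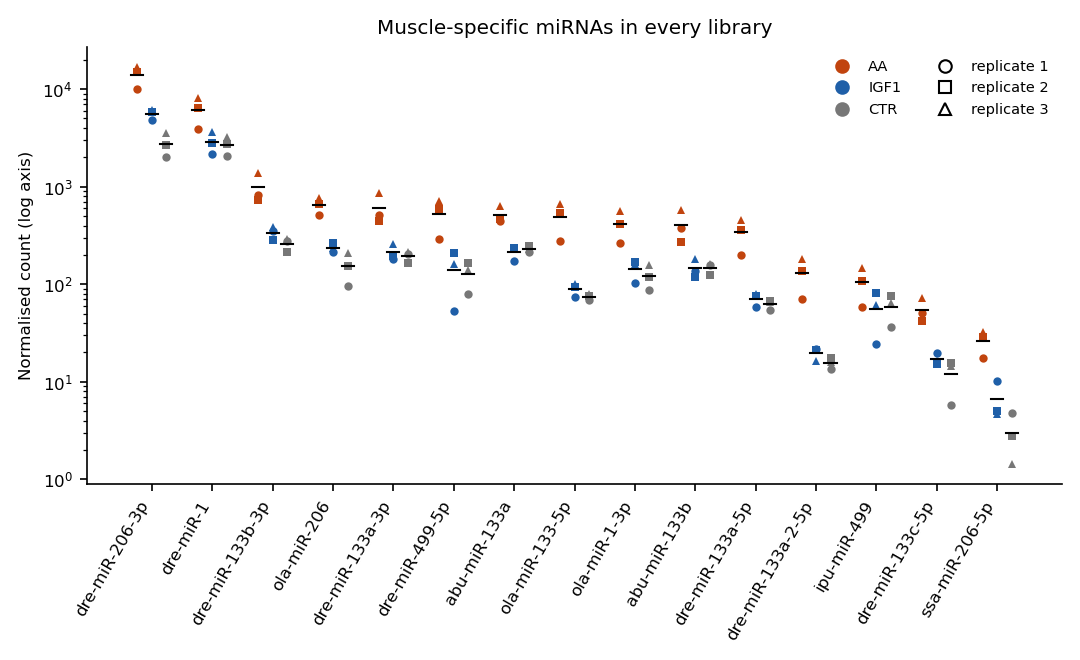
Normalised counts (log axis) of the 15 muscle-specific profiles in each library, with AA, IGF1 and CTR side by side, symbols for the replicate number and black bars for group means. AA libraries lie above IGF1 libraries in 14 of the 15 profiles, ipu-miR-499 being the exception, while all IGF1 libraries lie above all CTR libraries only for dre-miR-206-3p and ola-miR-206.

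As a group, the muscle-specific miRNAs had a median log2 fold change of 1.54 (range 1.00 to 2.61), against -0.02 over all profiles. Of their 15 profiles, 12 were called in every leave-one-out fit (1 of the 9 libraries left out in turn), where the median reached at most 1.66. Entries of 1 miRNA from several species can hold the same reads, so the 15 profiles are not 15 separate measurements. The median was 1.43 without AA replicate 3, where 12 of the 15 were called. Their share of the zebrafish counts was 0.194, 0.227 and 0.276% in AA, 0.0757, 0.0827 and 0.0851% in IGF1 and 0.0439, 0.0544 and 0.0683% in CTR. The 3 groups did not overlap, with a mean of 0.232 ± 0.0413% for AA and 0.0812 ± 0.0049% for IGF1 (SD, n = 3), which is a ratio of 2.86. Between IGF1 and CTR only dre-miR-206-3p (1.03, log2) and ola-miR-206 (0.67) of the 15 profiles were called, whereas dre-miR-1 had 0.06. In these bulk cultures, more muscle cells and more of the miRNA per muscle cell cannot be told apart.

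Outside the muscle-specific set, 22 of 938 profiles were called (2.35%), and of these the difference of miR-92b had the smallest standard error. This miRNA shares its seed with miR-92a of the miR-17-92 cluster, a polycistron that promotes proliferation in mammalian cells. dre-miR-92b-3p had 2787, 3193 and 3193 normalised counts in AA, 1583, 1803 and 1874 in IGF1, and 2383, 2602 and 2595 in CTR. The groups did not overlap, and IGF1 was the lowest of the 3. The log2 fold change of AA over IGF1 was 0.84 (SE 0.08, edgeR adjusted p = 5.16e-05), and the call held in all 9 leave-one-out fits. ccr-miR-92b (AA 2787, 3193 and 3193, IGF1 1583, 1803 and 1874) and oni-miR-92b (AA 2787, 3193 and 3193, IGF1 1582, 1803 and 1874) had nearly the same counts and the same fold change of 0.84, so the 3 called profiles are 1 measurement. The fourth profile of that name, ola-miR-92b, had 120.6, 92.1 and 139.8 normalised counts in AA and 122.7, 130.8 and 150.9 in IGF1 (log2 fold change -0.16, SE 0.16, edgeR adjusted p = 0.559). Of the 10 miR-92 profiles, 7 lay below 0. The abundant dre-miR-92a-3p, in contrast, had 17909, 16091 and 15518 normalised counts in AA and 19733, 15467 and 16541 in IGF1, and its log2 fold change was -0.02 (SE 0.07, edgeR adjusted p = 0.882). Within a library, the counts of miR-92b were 15.6, 19.8 and 20.6% of those of miR-92a in AA, against 8.02, 11.7 and 11.3% in IGF1. The ranges did not overlap (exact permutation test, two-sided p = 0.1, the smallest that 3 against 3 libraries allow, and 0.225 after adjustment over the 9 ratios examined). miR-92b had been called between the same libraries, so its ratio is no separate test.

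miR-26 is known in mouse myoblasts as a repressor of Ezh2, a histone methyltransferase that holds back differentiation. Its passenger arm ssa-miR-26a-4-3p had 103.6, 91.0 and 124.6 normalised counts in AA, 58.6, 42.3 and 30.6 in IGF1, and 165, 116 and 105 in CTR. AA and CTR overlapped, and every IGF1 library lay below both. The log2 fold change of AA over IGF1 was 1.31 (SE 0.22, edgeR adjusted p = 0.00471), and the call held in all 9 leave-one-out fits. Of the other 3p profiles, dre-miR-26a-3p was higher in AA by 0.37 (SE 0.11, edgeR adjusted p = 0.0495), below the fold threshold, and the rare dre-miR-26a-2-3p had a log2 fold change of -0.18 (SE 0.26, edgeR adjusted p = 0.692). The abundant arm, dre-miR-26a-5p, had 141086, 153774 and 148222 normalised counts in AA and 155025, 143832 and 162807 in IGF1. These ranges overlapped, and the log2 fold change was -0.02 (SE 0.05).

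Some passenger arms also differed for miR-125, a miRNA that represses IGF2 in mouse myoblasts. dre-miR-125b-2-3p had 80.9, 78.2 and 65.0 normalised counts in AA, against 32.0, 28.2 and 43.6 in IGF1. The groups did not overlap, and the log2 fold change was 1.19 (SE 0.28, edgeR adjusted p = 0.0222). ssa-miR-125a-3p had 394.7, 450.8 and 390.1 normalised counts in AA and 261, 265 and 322 in IGF1 (log2 fold change 0.59, SE 0.13). ssa-miR-125a-2-3p had 337, 412 and 306 in AA and 250.0, 224 and 257 in IGF1 (log2 fold change 0.56, SE 0.14). Neither pair of groups overlapped. These were 3 of the 6 labelled 3p profiles. Of the others, dre-miR-125b-1-3p had 149, 171 and 177 normalised counts in AA and 195.3, 143.9 and 148.5 in IGF1 (log2 fold change 0.06, SE 0.16). The other two, ssa-miR-125b-2-3p at -0.12 (SE 0.15) and gmo-miR-125a-3p at -0.11 (SE 0.12), lay below 0 although they carry the names of called arms in other species. The abundant arm dre-miR-125b-5p had 156960.0, 200599 and 174007 in AA and 190066, 201478 and 205621 in IGF1. Its ranges overlapped, with a log2 fold change of -0.14 (SE 0.06, edgeR adjusted p = 0.162). Within a library, the counts of dre-miR-125b-2-3p were 0.0515, 0.039 and 0.0374% of those of dre-miR-125b-5p in AA, against 0.0169, 0.014 and 0.0212% in IGF1. These did not overlap (exact permutation test, two-sided p = 0.1, the smallest possible, and 0.225 after adjustment over the 9 ratios). The arm had been called between the same libraries, so its ratio is no separate test. None of the 3 calls held in every leave-one-out fit: dre-miR-125b-2-3p held in 6 of 9, ssa-miR-125a-3p in 5 and ssa-miR-125a-2-3p in 3, and none of the 3 was called without the block. With upper-quartile factors 1 miR-125 profile was called.

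ssa-miR-551-5p had 61.0, 43.9 and 41.2 normalised counts in AA, 26.56, 22.13 and 14.14 in IGF1, and 12.5, 7.37 and 14.4 in CTR. AA lay above IGF1 in every library, and IGF1 overlapped CTR only through its replicate 3. The log2 fold change was 1.25 (SE 0.25, edgeR adjusted p = 0.014), with the call lost without the block (adjusted p = 0.0925). It was called in 6 of the 9 leave-one-out fits. The other 2 miR-551 profiles, whose names give no arm, had 0.13 and 0.73 and were not called. The rarest called profile was mze-miR-15c-5p, of the miR-15/16 family that represses cell cycle genes in mammalian cells. It had 19.8, 12.8 and 21.7 normalised counts in AA and 6.25, 6.04 and 8.25 in IGF1, without overlap. At a mean of 12.1 raw counts its log2 fold change of 1.46 (SE 0.40, edgeR adjusted p = 0.0378) was called in 4 of the 9 leave-one-out fits. The abundant zebrafish profile of the number miR-15, dre-miR-15a-5p, had 7977, 5709.6 and 8288 normalised counts in AA and 6554, 6170.0 and 6842 in IGF1, and a log2 fold change of 0.19 (SE 0.10). All 7 profiles of miR-15 lay above 0. The more abundant miR-16 lay mostly on the other side, with 21 of its 25 profiles below 0 and a median of -0.10, and dre-miR-16c-5p at 53033, 54199.6 and 46375 in AA and 56738, 52860 and 53657 in IGF1 had -0.05 (SE 0.06).

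The remaining higher calls were small. ssa-miR-301c-3p, which shares its seed with miR-130, had 83.8, 84.6 and 105 normalised counts in AA and 65.6, 45.3 and 62.5 in IGF1 (log2 fold change 0.69, SE 0.19). abu-miR-101b, from a family that represses EZH2 in human cells, had 235.2, 122.1 and 253.5 in AA and 160.9, 101.6 and 137.9 in IGF1 (log2 fold change 0.62, SE 0.15). ssa-miR-106a-5p, a paralog of the miR-17-92 cluster, had 961, 564 and 861 in AA and 631, 479 and 542 in IGF1 (log2 fold change 0.55, SE 0.13). The groups did not overlap for miR-301c, whereas for miR-101b and miR-106a AA replicate 2 fell within the IGF1 range. ipu-miR-101b had almost the counts of abu-miR-101b and is the same measurement. Each of these calls was made in 4 of the 9 leave-one-out fits and in none without the block. The miR-106 call was also lost with DESeq2, relative log expression factors or upper-quartile factors. The miR-301 call was lost with DESeq2, and the miR-101 calls with upper-quartile factors. ssa-miR-106a-5p at 0.55 and dre-miR-29b at 0.54 lay on either side of the fold threshold.

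**Figure D3:**
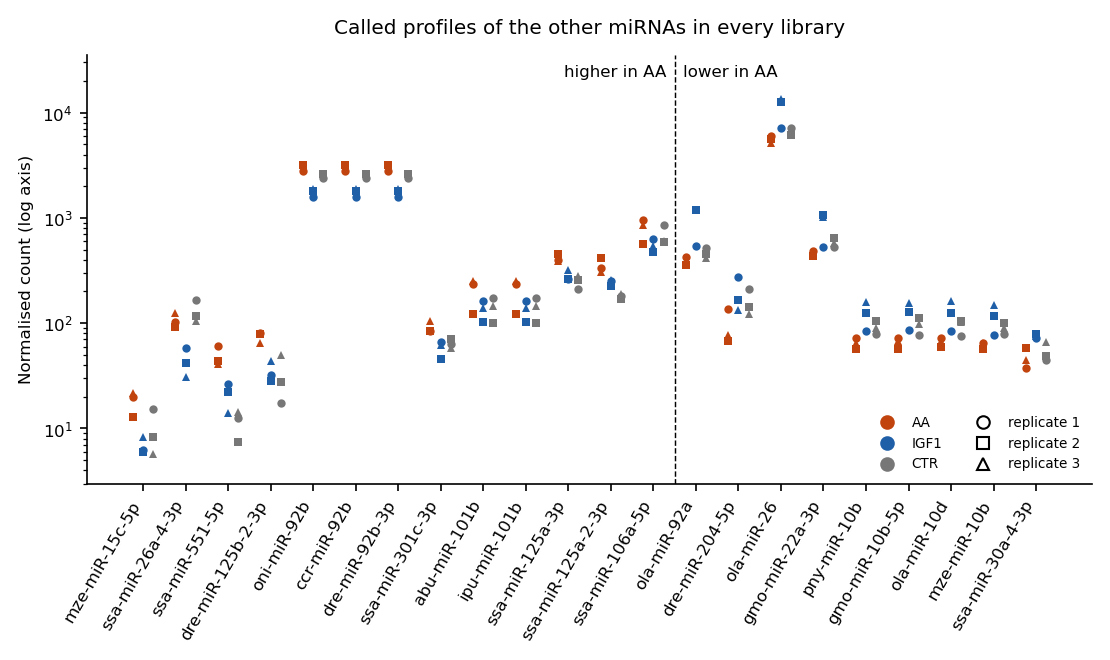
Normalised counts (log axis) of the 22 called profiles outside the muscle-specific set in each library, with AA, IGF1 and CTR side by side and symbols for the replicate number. Left of the dashed line are the 13 profiles higher in AA, and right of it the 9 lower ones, where IGF1 replicates 2 and 3 often stand above the remaining libraries.

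In the other direction, the largest difference was that of ola-miR-92a, a medaka entry of the same miR-92 family. It had 421, 359 and 379 normalised counts in AA, 537, 1197 and 1189 in IGF1, and 522, 450.5 and 417 in CTR. All IGF1 libraries lay above all AA libraries, but IGF1 replicate 1 was close to CTR and the difference came from IGF1 replicates 2 and 3. By pair, AA minus IGF1 was -0.24, -1.74 and -1.62 (log2). The fitted log2 fold change was -1.25 (SE 0.26, edgeR adjusted p = 0.014). It was lost as a call without AA replicate 3 (adjusted p = 0.0952) or IGF1 replicate 3 (adjusted p = 0.0955). Within a library, its counts were 2.35, 2.23 and 2.44% of those of dre-miR-92a-3p in AA, against 2.72, 7.74 and 7.19% in IGF1.

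The same libraries stood out for ola-miR-26 and gmo-miR-22a-3p. ola-miR-26 had 6003, 5558 and 5152 normalised counts in AA and 7118, 12702 and 13371 in IGF1, with CTR at 7194, 6161 and 6384. IGF1 replicate 1 lay inside the CTR range and only replicates 2 and 3 above it. AA over IGF1 had a log2 fold change of -0.93 (SE 0.19, edgeR adjusted p = 0.014), lost without AA replicate 3 (adjusted p = 0.117) or IGF1 replicate 3 (adjusted p = 0.0955). gmo-miR-22a-3p belongs to miR-22, a miRNA abundant in mouse heart and skeletal muscle. It had 480.8, 434.8 and 453.98 normalised counts in AA and 527, 1060.4 and 1009 in IGF1, and its log2 fold change was -0.83 (SE 0.20, edgeR adjusted p = 0.0255). This call was lost without the block (adjusted p = 0.0953) and in 4 of the 9 leave-one-out fits. The abundant counterparts differed far less: dre-miR-26a-5p as given above, and dre-miR-22a-3p with 976312, 1232121 and 1166459.6 in AA and 1167294, 1419984 and 1348329 in IGF1, where the log2 fold change was -0.18 (SE 0.04, edgeR adjusted p = 0.014).

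A set of 4 profiles of miR-10, a miRNA encoded within the Hox clusters, were called lower in AA. pny-miR-10b had 72.8, 56.8 and 65.0 normalised counts in AA, against 84.4, 125.8 and 157.9 in IGF1. No libraries overlapped, and again IGF1 replicate 1 was closest to AA. Its log2 fold change was -0.82 (SE 0.23, edgeR adjusted p = 0.0409). The most abundant of the 4, gmo-miR-10b-5p, had 72.0, 56.8 and 68.3 in AA and 85.9, 126.8 and 156.8 in IGF1, with a log2 fold change of -0.80 (SE 0.22). ola-miR-10d at -0.80 and mze-miR-10b at -0.78 had similar mean counts. By pair, AA minus IGF1 was -0.11, -1.13 and -1.23 (log2) in pny-miR-10b and -0.15, -1.03 and -1.13 in mze-miR-10b. The 4 profiles can hold the same reads, so they are not to be counted as 4 separate measurements. abu-miR-10b missed the threshold with the same fold change of -0.82 (SE 0.24, edgeR adjusted p = 0.0512), and dre-miR-10d-5p had -0.68 (SE 0.22, edgeR adjusted p = 0.0786). Most miR-10 profiles were nearer 0: the median of all 47 was -0.15, with 46 below 0. The abundant dre-miR-10b-5p, with a mean of 69254 raw counts, had -0.34, 0.29 and -0.41 by pair (log2). None of the 4 was called without the block, and each was called in 5 of the 9 leave-one-out fits. The number of miR-10 calls also moved with the scaling, being 9 with DESeq2, 10 with relative log expression or upper-quartile factors and 0 without composition factors, where the median was -0.0045 and 10 of the 47 profiles lay above 0.

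dre-miR-204-5p behaved differently from the lower profiles above, in which IGF1 replicate 1 was closest to AA. This miRNA lies in an intron of the channel gene TRPM3 in mammals and is abundant in the retinal pigment epithelium. It had 135.99, 67.5 and 76.9 normalised counts in AA, 272.7, 164.99 and 133.2 in IGF1, and 213.2, 142.8 and 122.4 in CTR. The groups overlapped by AA replicate 1 and IGF1 replicate 3, yet replicate 1 was highest in each group, and by pair AA minus IGF1 was -0.89, -1.27 and -0.75 (log2). The log2 fold change was -0.98 (SE 0.15, edgeR adjusted p = 0.00269). It was the only lower profile called in all 9 leave-one-out fits, and it was not called without the block (adjusted p = 0.316). The last lower profile was the passenger arm ssa-miR-30a-4-3p, of a family that acts on hedgehog signalling in zebrafish muscle. It had 37.5, 57.8 and 44.4 normalised counts in AA and 72.7, 78.5 and 75.4 in IGF1, without overlap. By pair, AA minus IGF1 was likewise spread over all 3 pairs, at -0.82, -0.44 and -0.72 (log2). Its log2 fold change of -0.68 (SE 0.19, edgeR adjusted p = 0.0473) was called in 1 of the 9 leave-one-out fits.

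Values relative to CTR, from the same model, show on which side of the starved state each group lay. Both contrasts share the CTR libraries, so they are given side by side and were not correlated. They also use the AA and IGF1 libraries by which the 37 profiles were chosen, so the counts below are a description, from which nothing is read against the share over all profiles. Over all profiles 31 were called between AA and CTR (3.25%; 2.94% higher and 0.315% lower in AA) and 18 between IGF1 and CTR (1.89%), and without the block the count between IGF1 and CTR was 0 in edgeR (75 at an unadjusted p of at most 0.05), while DESeq2 with the block called 14. Of the 28 profiles higher in AA than in IGF1, 18 were also called higher in AA than in CTR (2.94% of all profiles), and AA lay above CTR in 27. Only dre-miR-206-3p and ola-miR-206 among the 28 were called higher in IGF1 than in CTR (0.944% of all profiles), by 1.03 and 0.67 (log2). The 3 miR-92b profiles and ssa-miR-26a-4-3p were called lower in IGF1 than in CTR, by -0.56 and -1.57, whereas their AA values differed from CTR by 0.29 and -0.26 and were not called.

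The 9 profiles lower in AA all had AA below CTR and IGF1 above CTR. For dre-miR-204-5p it was AA that differed from CTR, by -0.77 (SE 0.16, edgeR adjusted p = 0.0142), against 0.21 for IGF1. For ola-miR-92a it was IGF1, by 1.01 (SE 0.26, edgeR adjusted p = 0.0416), against -0.25 for AA. The other 7 were called in neither contrast with CTR. dre-miR-338-5p and ipu-miR-29b are named because the study followed them up. dre-miR-338-5p was above CTR in both treatments (0.65 in AA, 0.76 in IGF1) and between them had a log2 fold change of -0.11 (SE 0.17, edgeR adjusted p = 0.692). ipu-miR-29b was below CTR in both (-2.09 in AA, -2.10 in IGF1), and its log2 fold change between them was 0.02 (SE 0.51). Its libraries were uneven, with AA minus IGF1 at 1.17, -0.77 and -0.30 (log2) by pair. The zebrafish entry dre-miR-29b did not share the fall in AA. Its mean normalised counts were 1711.5 in AA, 1199.7 in IGF1 and 1388.9 in CTR.

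**Figure D4:**
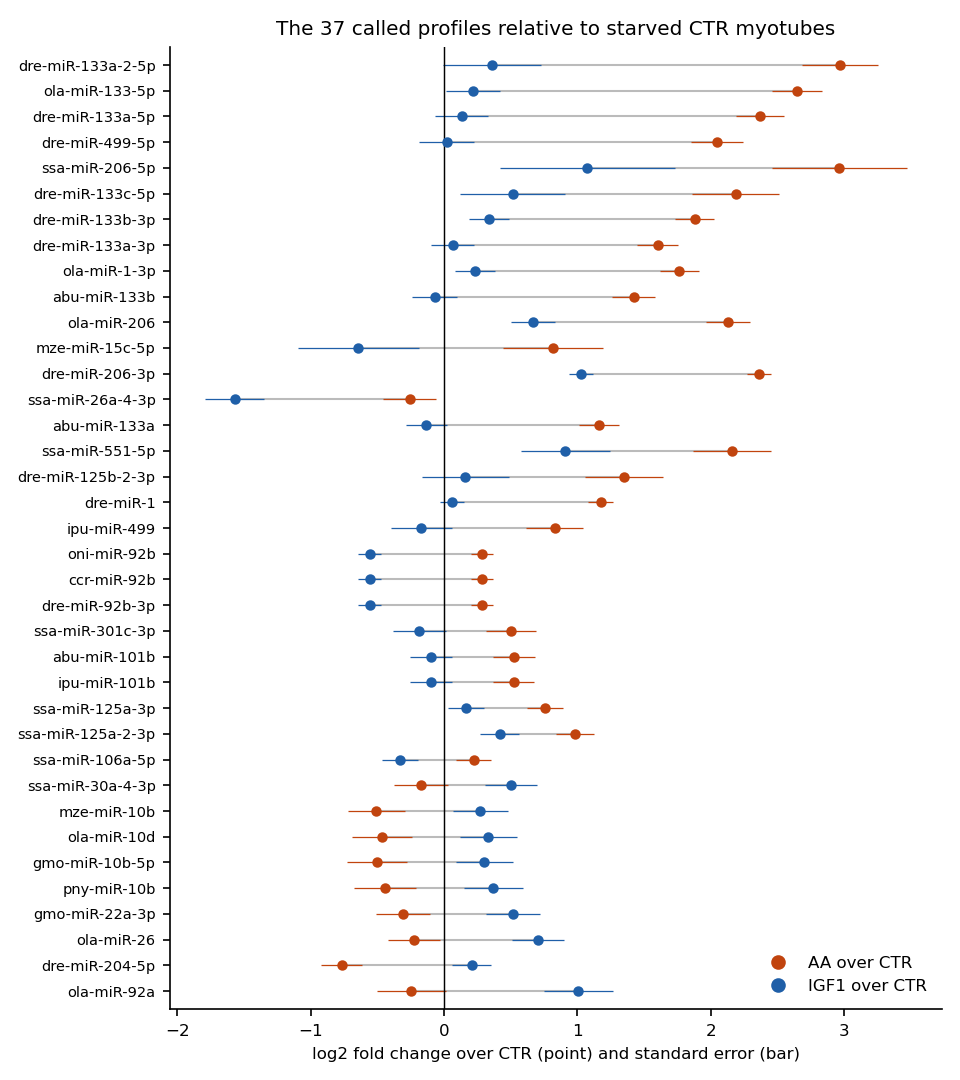
Log2 fold change over CTR of the 37 called profiles in AA and in IGF1, with 1 standard error, ordered by the AA over IGF1 fold change. Most muscle-specific profiles have IGF1 near 0 and AA between 0.83 and 2.97, the miR-92b and miR-26a-4-3p profiles have IGF1 below 0, and the 9 lowest rows have AA and IGF1 on opposite sides of 0.

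With the adjusted p alone, 98 profiles of 21 numbers passed (10.3%), 71 higher (7.45%) and 27 lower (2.83%), and 61 of them lay below the fold threshold. The 98 fell into 50 groups of near-identical counts. The miRNA number with the most passing profiles was miR-29, a family that represses collagen genes in mammalian fibroblasts and promotes differentiation of mouse myoblasts. Of its 38 profiles 23 passed, all higher in AA, 37 lay above 0, and the median was 0.46. Most of the 23 had nearly the same counts as dre-miR-29a or dre-miR-29b, so they are not 23 separate measurements. dre-miR-29a had 6901, 4112 and 6276 normalised counts in AA, 5126, 3730.4 and 3881 in IGF1, and 7165, 4706 and 5071 in CTR. Its groups overlapped, but AA exceeded IGF1 in each pair, by 0.53, 0.13 and 0.72 (log2). The log2 fold change was 0.47 (SE 0.11, edgeR adjusted p = 0.0221), with AA at 0.04 and IGF1 at -0.43 relative to CTR. dre-miR-29b, with 2088, 1180.0 and 1867 in AA and 1398, 956 and 1246 in IGF1, had 0.54 (SE 0.13, edgeR adjusted p = 0.0255). Without composition factors the family's median was 0.61 and 23 of its profiles were called, against 0 with the factors used here.

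miR-101 and miR-301 had more profiles that passed with smaller folds. dre-miR-101a had 12004, 7599 and 11039 normalised counts in AA, 9581, 6936 and 7624 in IGF1, and 13157, 8624 and 13249 in CTR, with a log2 fold change of AA over IGF1 of 0.37 (SE 0.09). The groups overlapped, and IGF1 was below CTR in each pair. abu-miR-301b had 137.5, 125.3 and 164.7 in AA and 105, 91.5 and 109.6 in IGF1, without overlap, and a log2 fold change of 0.52 (SE 0.15). abu-miR-106 had 2601, 2141 and 2424 in AA and 1973, 1778 and 1980.1 in IGF1, also without overlap (0.36, SE 0.09). dre-miR-27a-3p, from a miRNA that represses Pax3 in mouse muscle progenitors, had 0.40 (SE 0.09), and ipu-miR-455b 0.49 (SE 0.11).

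Among the profiles that passed with a lower level in AA, 15 belonged to miR-22, including the called one. Most of these 15 had nearly the same counts as dre-miR-22a-3p or ola-miR-22, so they are not 15 separate measurements. ola-miR-22 had 90371, 111059 and 110621 normalised counts in AA and 108578, 188335 and 164515 in IGF1, with a log2 fold change of -0.50 (SE 0.09, edgeR adjusted p = 0.00813). AA replicates 2 and 3 lay just above IGF1 replicate 1, and IGF1 replicates 2 and 3 stood apart. dre-miR-365 had 5130.2, 8511 and 7652 in AA and 8328, 10312 and 12491 in IGF1, where only AA replicate 2 reached above IGF1 replicate 1, and a log2 fold change of -0.53 (SE 0.12, edgeR adjusted p = 0.0212). abu-miR-30a-5p had -0.29 (SE 0.08). dre-miR-146a, from a miRNA that dampens NF-kB signalling in human cells, had -0.24 (SE 0.06). The most abundant miRNA, dre-miR-21, had a log2 fold change of -0.25 (SE 0.08) and did not pass (edgeR adjusted p = 0.0801).

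**Figure D5:**
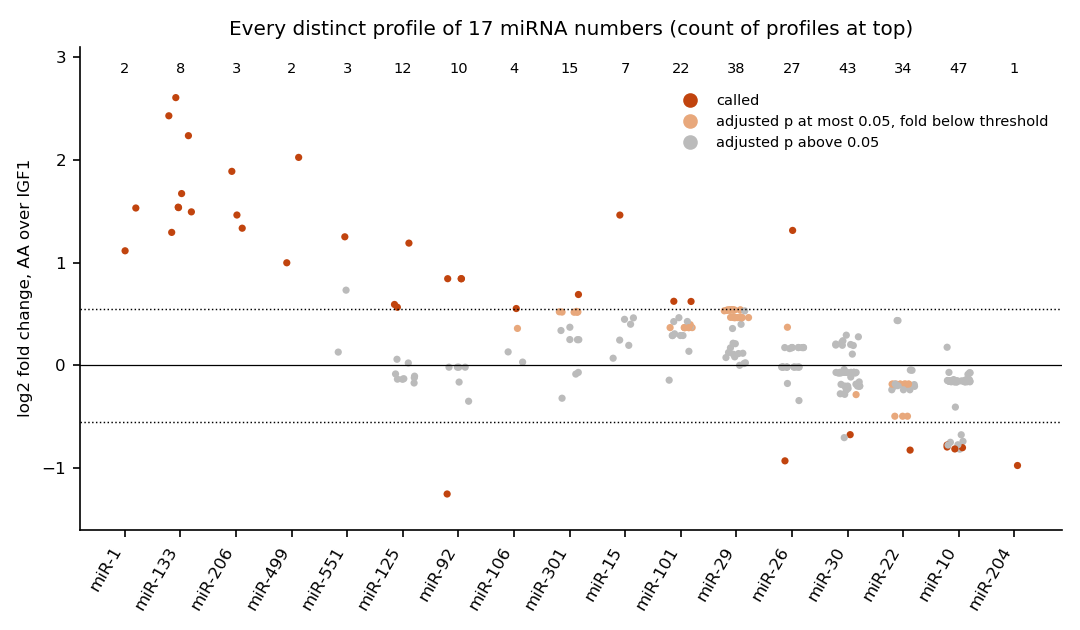
Log2 fold change of AA over IGF1 for every distinct profile of 17 miRNA numbers, with the number of profiles at the top and the fold threshold dotted. The 15 profiles of miR-1, miR-206, miR-133 and miR-499 all lie at 1.00 or above, miR-29 clusters just under the upper line, and in miR-92, miR-26 and miR-10 the called profiles stand away from most of their family.

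Several families had no called profile, where 3.88% of all profiles were called. None of the 108 profiles of let-7, a family linked to cell differentiation in many animals, was called or passed by the adjusted p alone (median -0.05, range -0.86 to 0.38). No profile of miR-181 (20 profiles, median 0.05, turning to -0.03 with upper-quartile factors), miR-221 and miR-222 (14 profiles, median 0.02, turning to -0.06 with upper-quartile factors), miR-338 (5, median 0.10) or miR-23/24/27 (116, median -0.01) was called, although 3 entries of miR-27a passed by the adjusted p alone. With relative log expression factors, and likewise with upper-quartile factors, 1 let-7 profile and 2 of miR-23/24/27 were called lower. In the following families with few calls, from miR-26 to miR-21/22, the medians lay between -0.18 and -0.02. For miR-26 the median was -0.02 (15 of 27 profiles below 0), and for miR-30 it was -0.07 (33 of 43). For miR-99, miR-100 and miR-125 together it was -0.12 (32 of 39), and for miR-10 and miR-196 -0.15 (49 of 56). For miR-15/16 it was -0.10 (21 of 34), and for miR-21/22 -0.18 (36 of 40). The medians of let-7, miR-23/24/27, miR-26, miR-30, miR-99, miR-100 and miR-125 and miR-15/16 turned positive without composition factors. In contrast, the miR-17-92 cluster and its paralogs, with 5 calls, had 46 of 61 profiles above 0 (median 0.20). Together miR-130, miR-301 and miR-454, with 1 call, had 19 of 29 (median 0.25).

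Markers of other cell types were compared, because muscle cultures can hold them. No marker profile was called for mesenchymal and smooth muscle cells (23 profiles, median -0.06), blood and endothelial cells (12, median 0.01), immune response (9, median -0.07), neural (30, median -0.06), epithelial (10, median -0.13) or liver cells (2, median 0.16). Over all profiles 3.88% were called, and outside the muscle-specific set 2.35%. Lists this small would hold few or no calls at that share. By the adjusted p alone, 2 of the 9 immune profiles passed, dre-miR-146a and ola-miR-146a-5p, each lower in AA at -0.24. Over all profiles 2.83% passed lower in this way. With upper-quartile factors 1 mesenchymal and smooth muscle profile was called lower, and 21 of the 23 lay below 0. Without composition factors the 4 mesenchymal, immune, neural and epithelial medians turned positive, the blood and endothelial median turned negative with relative log expression or upper-quartile factors, and 2 blood and endothelial profiles were called higher with upper-quartile or no factors. Mesenchymal markers took 6.18 to 7.97% of the zebrafish counts in AA and 5.95 to 7.77% in IGF1, and the immune pair of miR-146 and miR-155 took 6.16 to 7.09% in AA and 6.18 to 7.28% in IGF1. Blood and endothelial markers took 0.0152 to 0.0251% in AA and 0.0146 to 0.0209% in IGF1. Of their 12 profiles, 6 had a log2 fold change above 0 and 6 below. Below 0 were 4 of the 5 profiles of miR-126 and 2 of the 3 of miR-451, while both profiles of miR-142 and of miR-150 were above. The leukocyte miRNA ola-miR-142 had 27.9, 23.6 and 167 normalised counts in AA, 21.1, 25.2 and 61.3 in IGF1, and 21.1, 22.11 and 70.5 in CTR. Replicate 3 was high in every group and highest in AA, with a log2 fold change of 0.83 (SE 0.28, edgeR adjusted p = 0.0845). AA replicate 3 was also the highest library for most muscle-specific profiles, and its share of muscle-specific counts was 0.276%, against 0.194 and 0.227% in AA replicates 1 and 2. The part of other cell types in these differences was not tested.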

How the data were processed

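Members, lists and tests were chosen with earlier results of these data known, and profiles outside the naming rule were chosen after their values were seen. By that rule, library values are given for the most abundant and the most changed called profile of each miRNA number in each direction and for all muscle-specific miRNAs (miR-1, miR-206, miR-133 and miR-499). All called profiles are accounted for.

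Small RNA libraries were made from total RNA with a TruSeq kit. The authors trimmed the reads, aligned them by Bowtie2 against the miRBase mature sequences of 13 teleosts, and deposited raw counts of 3579 entries, of which 1199 were 0 in all libraries. The submitters' processing notes name FastQC 0.11.8, Trimmomatic, Bowtie2, DESeq2 and GRCz11. The authors also deposited normalised counts, a signal equal to the counts divided by 1 size factor per library (0.695 to 1.36), which gave the levels printed per library. The counts over every entry were 10.7 times the zebrafish total, so a read was counted for more than 1 entry. The rule for reads that match several of them is not stated by the labels or methods. Sequences were not used here.

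The test on raw counts was edgeR 4.0.16 under R 4.3.3, by glmQLFit and glmQLFTest with TMM factors. The model held all 9 libraries, with group and replicate number as terms, and Benjamini-Hochberg adjustment ran over 953 profiles. Entries with a mean under 10 counts, which hold 0.00134% of the counts, were left out. The study's methods gave the filter and the thresholds. They used DESeq2, and DESeq2 1.42.0 was an alternative. Standard errors came from the fold change and its F statistic. Near a mean of 10 counts, counting error is of the order of the spread between libraries. The script was tested on simulated data. The labels do not say what a replicate number marks. The plan of the comparison set the replicate number as the block, and the numbers were used as pairs on that basis. Deviations from group means correlated across profiles at 0.287 to 0.566 in the 9 same-numbered pairs of libraries. The 18 other pairs had -0.484 to 0.15. Deviations in a group cancel out, so positive values in same-numbered pairs lower those of the other pairs. P-values measure the spread between these libraries only.

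Alternatives were DESeq2, other composition factors or none, no filter or a mean of at least 50 counts, all entries as rows, near-identical entries collapsed, zebrafish entries only, the AA and IGF1 libraries only, no block, the adjusted p alone, another denominator for shares, and each library left out in turn.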

Additional observations from a re-analysis of the deposited data

How the results depend on the processing

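Counts are of distinct profiles called, against 37 (28 higher and 9 lower in AA) of 16 miRNA numbers. No called profile changed direction in any alternative. Over the named calls and the alternatives, 575 values kept their side of the threshold and 131 did not, and the causes were not tested. In some alternatives fewer libraries or profiles entered the fit. Without the replicate block 20 were called (18 higher, 2 lower, 6 numbers), all among the 37. With only the AA and IGF1 libraries there were 24 (21 higher, 3 lower, 9 numbers). Zebrafish entries alone, with 207 profiles and 8 of the 15 muscle-specific ones, gave 11 (10 higher, 1 lower, 7 numbers), of which 8 were muscle-specific. The adjusted p alone gave 98 (71 and 27), no composition factors 76 (72 and 4) and no filter 62 (41 and 21). Lower calls numbered 19 with relative log expression factors, 26 with upper-quartile factors, 20 over all entries, 18 with near-identical entries collapsed and 5 at a mean of at least 50 counts, while the totals there were 47, 52, 46, 43 and 29. DESeq2 called 39 (26 and 13). Leaving out 1 library gave 18 to 71 calls, 16 to 66 higher, 1 to 21 lower and 8 to 20 numbers, with 12 to 15 muscle-specific profiles called at a median of 1.43 to 1.66. Of the 37, 16 higher profiles and dre-miR-204-5p were called in all 9 such fits.

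Against CTR, 31 AA profiles were called, 48 with upper-quartile factors, 18 with zebrafish entries and 19 to 41 with 1 library left out. For IGF1 the 18 calls became 0 without the block, 39 with upper-quartile factors, 11 at a mean of at least 50 counts, 10 with zebrafish entries, 55 with the adjusted p alone and 12 to 19 with 1 library left out. As a share of all distinct profiles in place of zebrafish entries, muscle-specific miRNAs made up 0.0674% in AA and 0.0238% in IGF1. With 3 libraries a group and a counting floor near 10 counts, smaller differences of rare entries were not detectable.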
